A study of Rattus norvegicus with 12 samples.

Results

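The genes described here carry glucose into the heart muscle cell and break it down. They are 6 of the 34733 rows of the count files, taken by Ensembl identifier: Slc2a1 (ENSRNOG00000007284), Slc2a4 (ENSRNOG00000017226), Hk2 (ENSRNOG00000006116), Gapdh (ENSRNOG00000018630), Pkm (ENSRNOG00000011329) and Ldha (ENSRNOG00000013009). They were measured in left ventricles of Sprague–Dawley pups of both sexes, with surgery on postnatal day 1 and collection on postnatal day 3 (P3) or 7 (P7). In the ABS group a suture tied over a thin needle, which was then withdrawn, narrowed the abdominal aorta, and the sham group was operated on without banding. Each of the 4 groups (sham P3, ABS P3, sham P7 and ABS P7) had 3 libraries from separate samples. The labels call the samples left ventricular myocardiocytes, whereas the methods of the study describe whole left ventricles. Cell type markers could not be looked up by symbol, so the make-up of the tissue was not checked, and in such bulk samples fewer cells of a type cannot be told apart from less RNA per cell.

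Glucose enters cells through facilitative transporters. Slc2a1 encodes GLUT1, the transporter of basal uptake that is abundant in the fetal and newborn heart, and Slc2a4 encodes GLUT4, which moves to the cell surface in response to insulin and contraction and is typical of mature heart, skeletal muscle and fat. Hk2 encodes hexokinase 2, which traps glucose in the cell as glucose 6-phosphate. Gapdh (glyceraldehyde-3-phosphate dehydrogenase) and Pkm (pyruvate kinase of muscle) catalyze later steps of glycolysis, and Ldha encodes the lactate dehydrogenase subunit that favors the conversion of pyruvate to lactate.

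Library totals were similar, at 14268210 to 17286278 counts, but the P3 libraries differed from each other. They detected 15266 to 18359 genes with at least 1 count, against 18579 to 18982 at P7, so the days did not overlap in this number. ABS P3 replicates 1 and 2 and sham P3 replicate 2 detected the fewest genes (15266, 15719 and 15451), and their 10 most abundant genes held 21.6% to 25.5% of the counts, against 15.7% to 19.4% in the other 9 libraries. Leaving out these 3 libraries left 2 sham libraries and ABS P3 replicate 3 alone at P3, and fits without them take that lone library to vary like the other groups. ABS against sham at P3 alone was not fitted without them. All 6 genes passed the filter on low counts in every comparison, with at least 240 counts in each library.

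From P3 to P7, Slc2a1 and Gapdh fell and Hk2 rose when both surgery groups were fitted together, with 6 libraries a day. These 3 of 6 genes passed edgeR's quasi-likelihood F test after Benjamini-Hochberg adjustment over all genes (threshold 0.05), where 17.1% of the 15236 genes tested passed. Of all genes tested, 11.5% passed as lower at P7, as did 2 of 6, and 5.59% passed as higher, as did 1 of 6. DESeq2 also called 3 of 6, against 23.7% of all genes, and 4 of 6 had an unadjusted p under 0.05, against 37.6%. The share of genes called was thus high in general. The log2 fold change of the 6 genes had a median of -0.26, beside 0.03 for all genes, and a median size of 0.56, beside 0.47 for all genes. The labels name no batch, and a batch that followed the day could not be told apart from it.

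**Figure D1:**
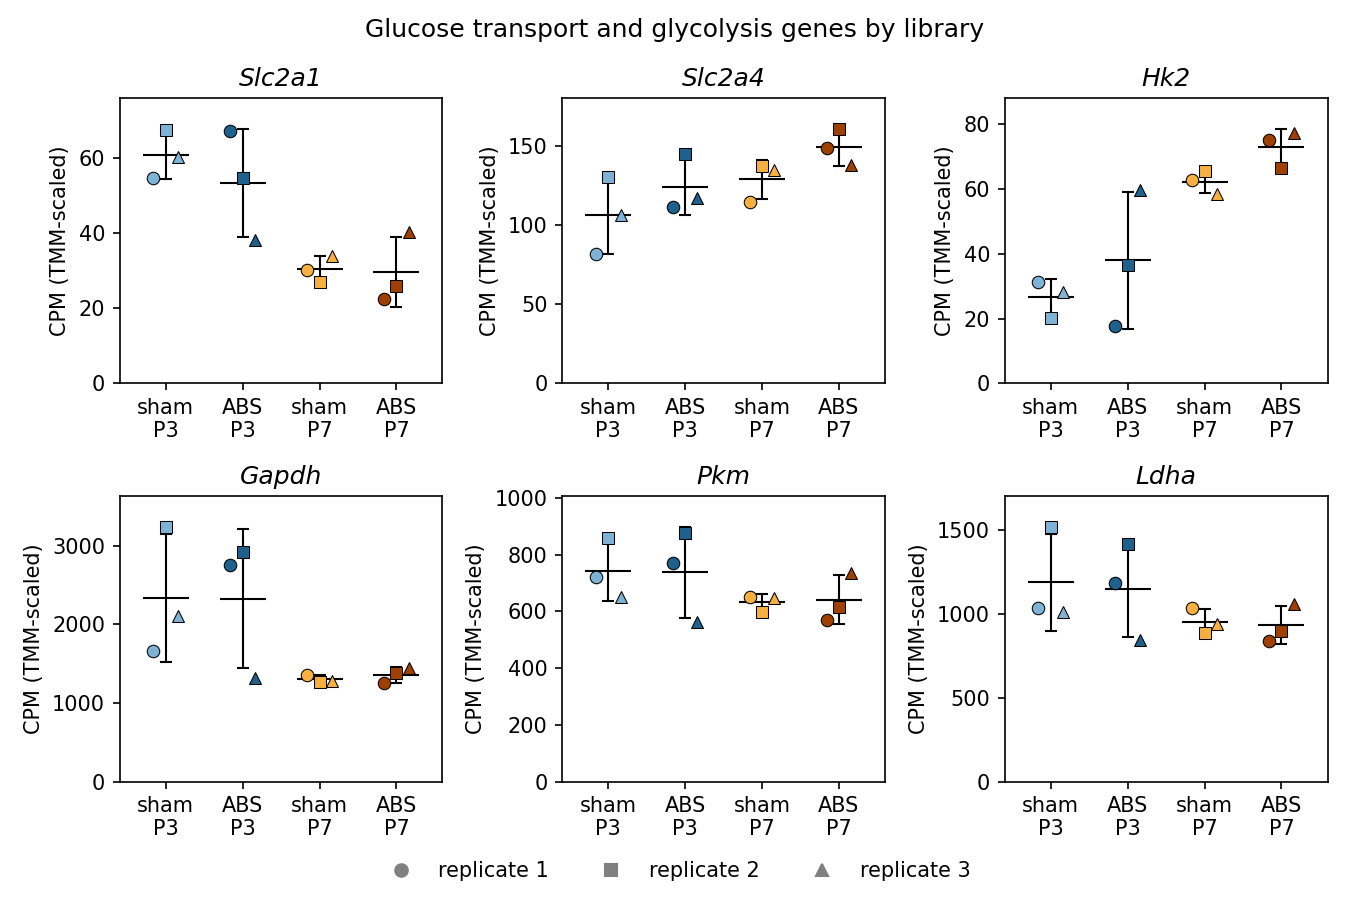
Level of each gene in each library, in CPM on TMM-scaled totals (y axis, from 0), for the 4 groups (x axis). Points are libraries, with the replicate number shown by the marker, and bars show the mean and SD of 3 libraries. Slc2a1 is lower and Hk2 higher at P7, and ABS P3 replicate 3 (the triangle of that group) lies near the P7 libraries for Slc2a1, Hk2 and Gapdh.

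Slc2a1 was at 54.7, 67.5 and 60.2 CPM (counts divided by the TMM-scaled library total) in sham P3 replicates 1, 2 and 3, and at 67.1, 54.6 and 38.2 CPM in the ABS P3 group. At P7 it was at 30.2, 27.0 and 33.9 CPM in the sham group and at 22.5, 26.0 and 40.2 CPM in the ABS group. All sham libraries of P7 lay below all sham libraries of P3, whereas in the ABS group the lowest P3 library (replicate 3) was below the highest P7 library (replicate 3). The means fell from 57.0 ± 10.8 CPM (SD, n = 6) at P3 to 29.9 ± 6.31 CPM (SD, n = 6) at P7. The log2 fold change was -0.93 (standard error, SE, 0.17; edgeR, adjusted p = 0.00974). It passed the threshold in each of 12 fits that left out 1 library. Without ABS P3 replicates 1 and 2 and sham P3 replicate 2 it was -0.73, with an adjusted p of 0.0681.

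Slc2a4 was at 82.1, 130.5 and 106 CPM in the sham P3 group and at 112, 145 and 117 CPM in the ABS P3 group. At P7 it was at 115, 138 and 135 CPM in the sham group and at 149, 161 and 138 CPM in the ABS group. Its P3 and P7 libraries overlapped within each surgery group on this scale. On library totals without TMM scaling, all P7 libraries lay above the P3 libraries of the same surgery. The share of all genes without overlap was not computed on library totals. The log2 fold change of P7 against P3 was 0.27 (SE 0.12; edgeR, adjusted p = 0.133), so the difference between the days did not pass the test. Library totals in place of TMM moved the median log2 fold change of all genes from 0.03 to 0.23. With them, that of Slc2a4 was 0.49 and passed (edgeR, adjusted p = 0.0218), where 11.8% of all genes did. Without the 3 P3 libraries with the fewest genes it was 0.40, with an adjusted p of 0.0967.

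Because the 2 transporters are read in the same library, their ratio does not depend on how libraries are scaled. It is a ratio of reads and not per gene length, so it is compared between libraries only and does not say which transporter had more molecules. Slc2a4 gave 1.502, 1.93 and 1.77 reads per Slc2a1 read in the sham P3 group, and 1.67, 2.65 and 3.06 in the ABS P3 group. At P7 the ratio was 3.81, 5.11 and 3.99 in the sham group and 6.60, 6.21 and 3.44 in the ABS group. All 6 libraries of P7 lay above all 6 libraries of P3. The ratio was 2.32-fold higher at P7 (difference of mean log2 ratios 1.22; exact permutation test within surgery groups, two-sided, p = 0.005, the smallest that 400 assignments can give, and 0.035 adjusted over 7 comparisons). Within a surgery group, it was 2.47-fold higher in sham and 2.18-fold higher in ABS animals, each with p = 0.1 by an exact permutation test, the smallest that 3 against 3 libraries allow. Without the 3 P3 libraries with the fewest genes, the difference over both surgeries was 1.08 on the log2 scale.

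**Figure D2:**
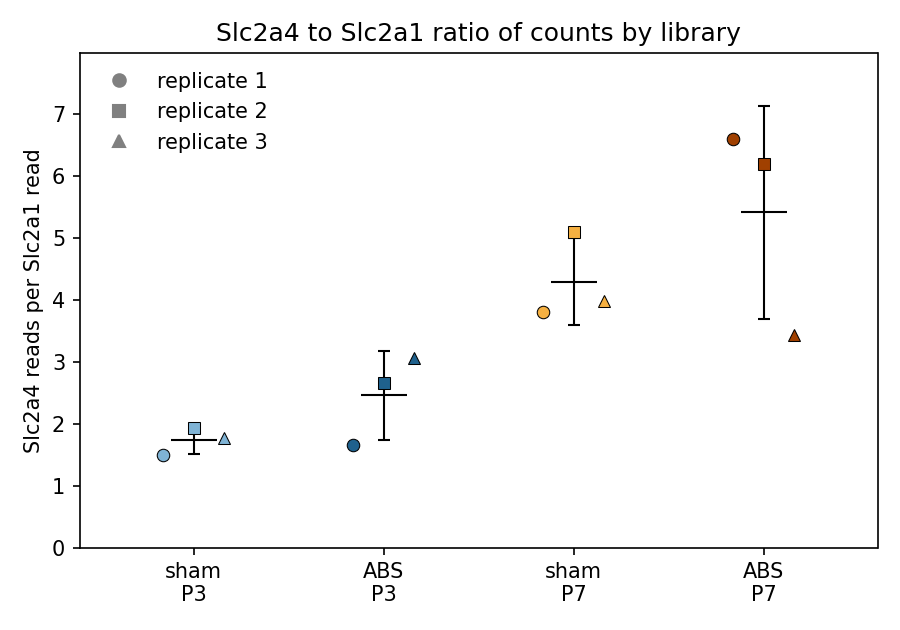
Reads of Slc2a4 per read of Slc2a1 in each library (y axis, a ratio of counts with no unit, from 0) for the 4 groups (x axis). Points are libraries and bars show the mean and SD of 3 libraries. The 6 libraries of P3 sit between 1.502 and 3.06 and the 6 libraries of P7 between 3.44 and 6.60.

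Hk2 was at 31.3, 20.2 and 28.3 CPM in the sham P3 group and at 17.6, 36.6 and 59.8 CPM in the ABS P3 group. At P7 it was at 62.9, 65.5 and 58.5 CPM in the sham group and at 75.1, 66.4 and 77.3 CPM in the ABS group. Within each surgery group all P7 libraries were above all P3 libraries, but ABS P3 replicate 3 came close to the P7 range and was above sham P7 replicate 3. The means rose from 32.3 ± 15.2 CPM (SD, n = 6) to 67.6 ± 7.24 CPM (SD, n = 6). The log2 fold change was 1.08 (SE 0.24; edgeR, adjusted p = 0.0151). It passed in each of 12 fits that left out 1 library, and without the 3 P3 libraries with the fewest genes it was 0.73 with an adjusted p of 0.0395, the 1 gene of 6 still called there, against 3.15% of all genes.

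Gapdh was at 1655, 3237 and 2100.3 CPM in the sham P3 group and at 2747, 2920.2 and 1311 CPM in the ABS P3 group. At P7 the libraries were close to each other, at 1358, 1269 and 1282 CPM in the sham group and at 1249, 1379 and 1449 CPM in the ABS group. All sham P7 libraries lay below all sham P3 libraries, while ABS P3 replicate 3 lay within the P7 range. The coefficient of variation was 32.7% over the 6 libraries of P3 and 5.80% over the 6 libraries of P7. The log2 fold change was -0.81 (SE 0.21; edgeR, adjusted p = 0.0247). It was less stable than that of Slc2a1 and Hk2, as it passed in 5 of 12 fits that left out 1 library, with adjusted p of 0.00221 to 0.0637. Without the 3 P3 libraries with the fewest genes it was -0.33, with an adjusted p of 0.223. Rodent genomes hold many processed copies of Gapdh, and reads from near-identical copies of it, and of Pkm and Ldha, could have been counted on another row.

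Pkm and Ldha, which act at the end of the pathway, differed less between the days. Pkm was at 721, 858 and 651 CPM in the sham P3 group and at 771, 878 and 562 CPM in the ABS P3 group, and ranged from 569 to 737 CPM over the 6 libraries of P7. Its log2 fold change over both surgeries was -0.22 (SE 0.13; edgeR, adjusted p = 0.227). Ldha was at 1038, 1522 and 1011 CPM in the sham P3 group and at 1189, 1421 and 845 CPM in the ABS P3 group, and ranged from 839 to 1059 CPM at P7. Its log2 fold change was -0.31 (SE 0.15; edgeR, adjusted p = 0.156). Without the 3 P3 libraries with the fewest genes, both log2 fold changes were -0.02. The P3 and P7 ranges of both genes overlapped, and the counts of Pkm do not separate its splice forms M1 and M2.

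Without overlap between the days, sham libraries were lower at P7 for 3 of 6 genes (Slc2a1, Gapdh and Pkm, against 14.5% of all genes) and higher for 1 of 6 (Hk2, against 15.6%). The gap for Pkm was very narrow, with sham P3 replicate 3 at 650.6 CPM and sham P7 replicate 1 at 650.4 CPM. On library totals without TMM scaling Pkm overlapped. In the ABS group, 0 of 6 were lower without overlap (13.0% of all genes) and 1 of 6, Hk2, was higher (15.0%). Fitted on its own 6 libraries, neither surgery group gave a gene of the 6 past the adjusted threshold, where 0.00684% of all genes passed in sham and 0.0138% in ABS animals. At an unadjusted p under 0.05 it was 3 of 6 in sham (Slc2a1, Hk2 and Gapdh, background 16.1%) and 2 of 6 in ABS animals (Slc2a1 and Gapdh, background 17.7%). DESeq2 called 2 of 6 in sham animals, Slc2a1 and Hk2 (background 2.78%), and 0 of 6 in ABS animals (background 3.22%). The log2 fold changes were -1.01 and -0.88 for Slc2a1, 1.22 and 0.92 for Hk2 and -0.84 and -0.81 for Gapdh in sham and ABS animals. Without the 3 P3 libraries with the fewest genes, those of sham animals were -0.92 for Slc2a1, 1.06 for Hk2 and -0.53 for Gapdh. Those of ABS animals, against ABS P3 replicate 3 alone, were then -0.38, 0.27 and 0.04. With detected genes as a covariate, the values of ABS animals changed sign. They were 0.13 for Slc2a1, -0.62 for Hk2 and 0.73 for Gapdh (edgeR, adjusted p = 0.891, 0.403 and 0.163). Those of sham animals kept their sign, at -0.83, 0.89 and -0.20 (edgeR, adjusted p = 0.153, 0.132 and 0.606). The calls within a surgery group changed when single P3 libraries were left out. Without sham P3 replicate 1, Slc2a1, Hk2 and Gapdh passed in sham animals, where 32.2% of all genes did. Without ABS P3 replicate 3, all genes but Slc2a4 passed in ABS animals, where 50.1% of all genes did. Without it over both surgeries, 5 of 6 passed, where 39.7% of all genes did.

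**Figure D3:**
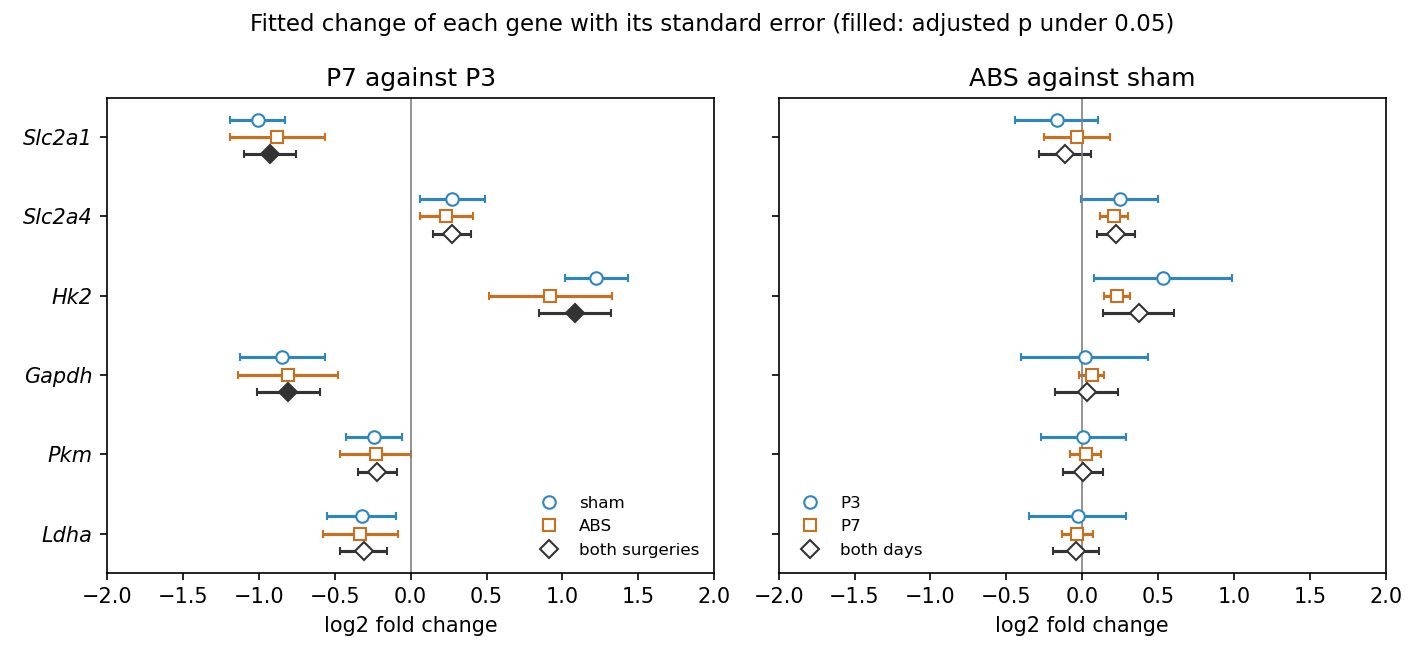
Log2 fold change of each gene (x axis) with its standard error (bars) from edgeR, for P7 against P3 (left panel) and ABS against sham (right panel). Filled markers have an adjusted p under 0.05, which holds for Slc2a1, Hk2 and Gapdh in the comparison of days over both surgeries and for no gene in the comparison of surgeries.

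At P3, the later enzymes were higher on TMM-scaled totals in the 3 libraries with the fewest genes detected. In the 3 libraries with the fewest genes, Gapdh was at 2747 to 3237 CPM, Pkm at 771 to 878 CPM and Ldha at 1189 to 1522 CPM. In the other 3 libraries of P3, the values were 1311 to 2100.3, 562 to 721 and 845 to 1038 CPM, so the sets did not overlap on this scale. Hk2 overlapped, at 17.6 to 36.6 CPM in the former and 28.3 to 59.8 CPM in the latter, and so did both transporters. For Gapdh the sets also did not overlap on library totals without TMM scaling, at 2322 to 2618 and 1380.1 to 2071 CPM, whereas for Pkm and Ldha they did. The libraries with the fewest genes were 2 ABS libraries and 1 sham library, so the sets are not the surgery groups. The share of all genes without overlap between the sets was not computed, and whether the gap is particular to these enzymes was not tested. Among the other libraries of P3, Gapdh was at 2100.3 CPM with 17259 genes, 1311 CPM with 17530 and 1655 CPM with 18359. These 3 libraries are too few to show a trend or its absence. With detected genes as a covariate, the log2 fold change of P7 against P3 over both surgeries was -0.57 for Slc2a1, 0.38 for Hk2 and 0.05 for Gapdh, and 0 of 6 passed, where 0.814% of all genes did. Since the number of detected genes separated the days completely, its part and that of the day cannot be told apart.

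**Figure D4:**
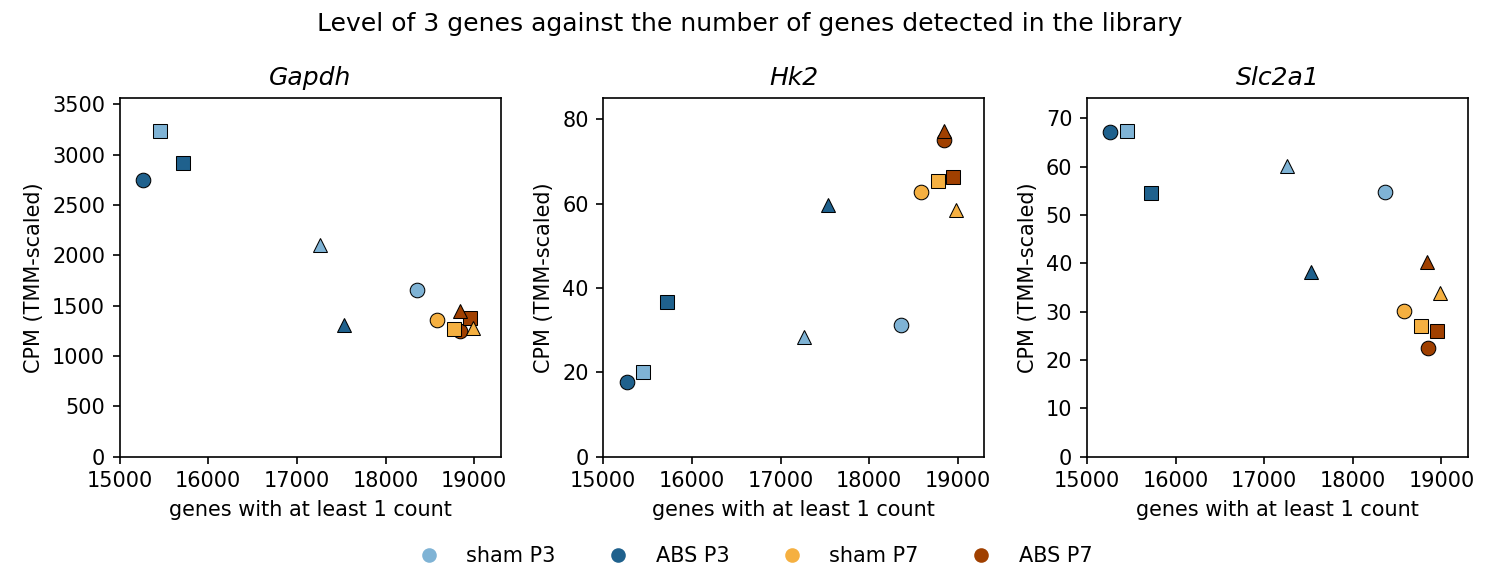
Level of Gapdh, Hk2 and Slc2a1 in CPM on TMM-scaled totals (y axes, from 0) against the genes detected in the library (x axis). Each point is 1 of 12 libraries, colored by group. The 3 libraries of P3 with the fewest genes (15266 to 15719) have the highest Gapdh, at 2747 to 3237 CPM, and the libraries of P7 lie together at the right.

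The sequences before the transcription starts of the 3 genes called between the days are shown as a description. A link between them and the direction of change was not tested. They are the 250 bases upstream of the start, from RefSeq on the assembly GRCr8, matched by symbol. 5 of the 6 genes had an entry, and Slc2a4 is named only. Capitals mark ACGTG and GCGTG on either strand, the core letters to which hypoxia-inducible factors, known activators of glycolysis genes, can bind. The first lies at chr5:138002272-138002521 (plus strand), the second at chr4:159652468-159652717 and the third at chr4:116841276-116841525 (both minus strand).
Slc2a1: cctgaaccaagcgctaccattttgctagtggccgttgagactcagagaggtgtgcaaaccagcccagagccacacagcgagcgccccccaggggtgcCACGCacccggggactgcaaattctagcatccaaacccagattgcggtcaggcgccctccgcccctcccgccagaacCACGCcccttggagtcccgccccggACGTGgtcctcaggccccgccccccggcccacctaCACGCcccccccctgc
Gapdh: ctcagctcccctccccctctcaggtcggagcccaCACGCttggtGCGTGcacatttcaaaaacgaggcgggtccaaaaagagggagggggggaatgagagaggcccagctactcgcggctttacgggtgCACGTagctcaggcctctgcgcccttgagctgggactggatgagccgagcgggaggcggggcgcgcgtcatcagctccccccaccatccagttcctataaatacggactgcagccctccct
Hk2: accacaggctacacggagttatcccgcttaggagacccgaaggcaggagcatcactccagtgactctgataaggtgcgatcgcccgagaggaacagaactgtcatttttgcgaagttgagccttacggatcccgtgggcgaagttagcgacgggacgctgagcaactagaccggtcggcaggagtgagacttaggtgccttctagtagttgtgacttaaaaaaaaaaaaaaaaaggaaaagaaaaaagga
Upstream of Slc2a1 there were 1 match of ACGTG and 3 of GCGTG, upstream of Gapdh 1 and 2, and upstream of Hk2 0 and 0. Ldha had 3 and 1, and Pkm 0 and 0. Of all 33469 promoters of this length, 16.6% held the first motif and 25.9% the second. The share of G and C was 68.4% upstream of Slc2a1, 63.6% upstream of Gapdh and 49.6% upstream of Hk2, beside a median of 51.2%. Both motifs are rich in G and C, and the shares over all promoters were not matched for this. The first is also part of the E-box CACGTG, present in 5.59% of promoters and, among the 5 genes, upstream of Ldha.

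The GC box GGGCGG, in 30.5% of promoters, had 3 matches each upstream of Slc2a1 and Ldha, 1 upstream of Pkm and 0 upstream of Gapdh and Hk2. The letters TATAAA, in 12.9% of promoters, occurred upstream of Gapdh at 26 bases before the start. A match of letters is a description and not a binding site.

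The question of the surgery was whether ABS changed these genes at either day. None of the 6 genes passed the adjusted threshold at P3 or at P7, and with edgeR's quasi-likelihood F test neither did any other gene (0% of 14222 and 0% of 14635 genes). At an unadjusted p under 0.05, 0 of the 6 genes stood at P3 (background 0.330%) and 2 of 6 at P7, Hk2 and Slc2a4 (background 3.40%). DESeq2 called 0 of 6 on each day (background 0.0199% and 0.0524%). At P3 the log2 fold changes of ABS against sham lay between -0.17 for Slc2a1 and 0.53 for Hk2, with standard errors of 0.26 to 0.45. At P7 they lay between -0.04 for Slc2a1 and 0.23 for Hk2, with standard errors of 0.08 to 0.22, so the later day was measured more precisely. The Slc2a1 value at P7 rested on ABS P7 replicate 3, without which it was -0.33 (SE 0.12; edgeR, unadjusted p = 0.0222, adjusted p = 0.759).

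Hk2 and Slc2a4 were the 2 genes of the 6 with no overlap of ABS and sham libraries at P7, both higher in the ABS group, where 4.39% of all genes did so in that direction. In the lower direction it was 0 of 6, against 4.44%. Hk2 averaged 72.9 ± 5.77 CPM (SD, n = 3) with ABS and 62.3 ± 3.53 CPM (SD, n = 3) without. ABS against sham gave a log2 difference of 0.23 (SE 0.08; edgeR, adjusted p = 1.00). Slc2a4 averaged 149 ± 11.5 and 129 ± 12.4 CPM (SD, n = 3 each), a log2 difference of 0.21 (SE 0.09; edgeR, adjusted p = 1.00). The gap for Slc2a4 was narrow, as its lowest ABS library was at 138.2 and its highest sham library at 137.6 CPM, and on library totals without TMM scaling the groups overlapped. For Hk2 the groups stayed apart on both scales, but also narrowly. Its lowest ABS library was at 66.4 CPM and its highest sham library at 65.5 CPM. On library totals without TMM scaling these were at 70.6 and 70.1 CPM. Neither difference passed after adjustment over all genes.

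At P3 the ABS and sham libraries overlapped for all 6 genes, where 1.68% of all genes were higher and 1.79% lower without overlap. ABS P3 replicate 3 had the highest Hk2 and the lowest Slc2a1, Gapdh, Pkm and Ldha of the 6 libraries of that day. Without it, the log2 fold change of Hk2 was 0.04 in place of 0.53 and that of Gapdh 0.30 in place of 0.01. Over both days with 12 libraries, the log2 fold changes of ABS against sham were 0.37 for Hk2 (SE 0.24) and 0.22 for Slc2a4 (SE 0.12), and between -0.11 and 0.03 for the other genes. None of the 6 passed the adjusted threshold in edgeR (adjusted p = 1.00 for each), 0 of 6 had an unadjusted p under 0.05 (background 1.05%), and DESeq2 called 0 of 6 (background 0%). The Hk2 value depended on the P3 libraries. It was 0.14 without ABS P3 replicate 3. It was 0.51 without ABS P3 replicate 1, 0.47 without the 3 P3 libraries with the fewest genes and 0.45 with detected genes as a covariate (edgeR, unadjusted p = 0.0162, 0.00824 and 0.0171; adjusted p = 1.00, 0.999 and 0.936).

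The Slc2a4 to Slc2a1 ratio was higher in the ABS group by 1.38-fold at P3 and 1.22-fold at P7, with overlapping libraries (two-sided exact permutation tests, p = 0.3 at P3 and p = 0.4 at P7; 3 against 3 libraries cannot go below 0.1). Over both days it was 1.30-fold higher (exact permutation test within days, two-sided, p = 0.1, adjusted p = 0.175). Its lowest ABS values were those of ABS P3 replicate 1 and, at P7, of ABS P7 replicate 3, which also had the highest Slc2a1 of the P7 libraries. Without ABS P3 replicate 1 the exact permutation p over both days was 0.035, and without ABS P7 replicate 3 it was 0.03, both unadjusted. Leaving out the lowest ABS value of a day raises the difference by construction. Only these 2 of 12 exact permutation tests with 1 library left out passed, with p up to 0.21.

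Whether the effect of the surgery differed between the days was tested as an interaction on all 12 libraries. None of the 6 genes passed in edgeR (adjusted p = 1.00 for each), 0 of 6 had an unadjusted p under 0.05 (background 1.16%), and DESeq2 called 0 of 6 (background 0.0221%). The largest of the 6 interaction terms was that of Hk2, at -0.29 on the log2 scale with a standard error of 0.49. With 1 library left out it ranged from -0.63 without ABS P3 replicate 1 to 0.18 without ABS P3 replicate 3. Without the 3 P3 libraries with the fewest genes, the interaction was -0.77 for Hk2 (SE 0.20; edgeR, unadjusted p = 0.00381, adjusted p = 0.578) and 0.59 for Gapdh (SE 0.24; edgeR, unadjusted p = 0.0358, adjusted p = 0.585). With detected genes as a covariate it was -0.56 for Hk2 and 0.47 for Gapdh (edgeR, unadjusted p = 0.0894 and 0.0273; adjusted p = 0.440 and 0.311). For the Slc2a4 to Slc2a1 ratio the interaction was -0.18 on the log2 scale (permutation of surgery labels within days, two-sided, p = 0.72). Such a permutation is exact only if the surgery had no effect on either day.

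**Figure D5:**
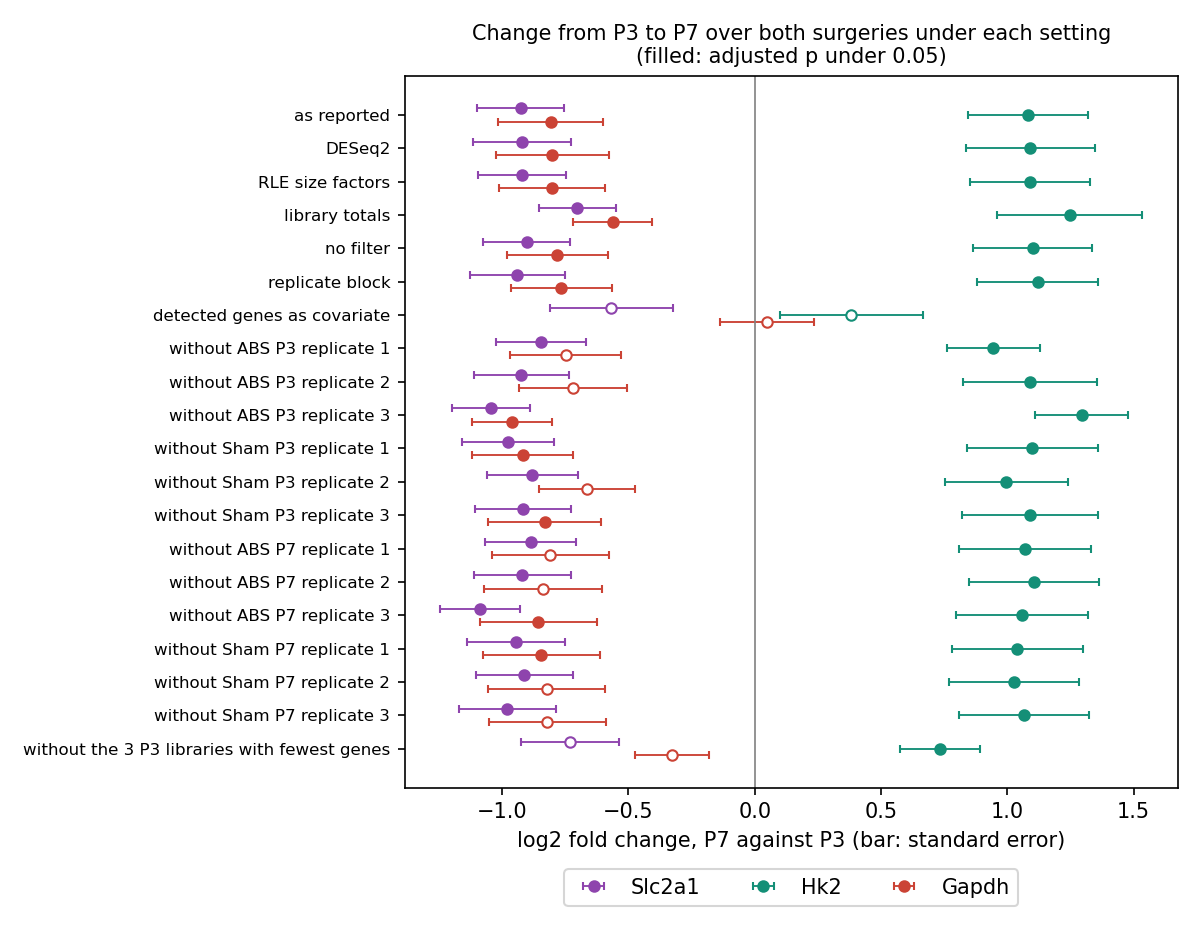
Log2 fold change of P7 against P3 over both surgeries (x axis) with its standard error, for Slc2a1, Hk2 and Gapdh under each setting (y axis). Filled markers have an adjusted p under 0.05. Hk2 stays right of 0 and Slc2a1 left of 0 in every setting shown, while Gapdh is at 0.05 with detected genes as a covariate.

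The genes most similar to the transporters were sought among 9129 genes above a minimum mean level of 10 CPM, by Pearson's r of the deviations of log2 CPM from the 4 group means over 12 libraries. For Slc2a1 it was ENSRNOG00000029543 (r = 0.95) and for Slc2a4 it was ENSRNOG00000019438 (r = 0.97). Among the 6 genes, r was 0.96 between Pkm and Ldha, 0.91 between Gapdh and Ldha, 0.05 between Slc2a1 and Slc2a4, and -0.76 between Hk2 and Gapdh. The libraries share their depth and the number of detected genes with each value, so these are descriptions.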

How the data were processed

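RNA-seq of rat left ventricle covered 12 libraries, with 3 per combination of surgery (abdominal aortic banding surgery, ABS, or sham) and postnatal day (3 or 7). Libraries were grouped by their titles. The deposited values are raw counts of reads per gene, 1 file per library. The authors filtered adapter-containing, undetermined and low-quality reads before counting with featureCounts. The submitters' processing notes name HISAT2 2.0.5 and the builds GRCm38 and mm10, which are mouse builds, while the rows are rat Ensembl identifiers. The annotation, the strand setting and the treatment of reads with several matches are not given in the sources used here.

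The 6 genes were taken by identifier from a list that pairs them with symbols. The genes, tests and alternatives were chosen with earlier results of these data known. The files pair no identifier with a symbol, and 0 of 32883 Ensembl identifiers matched the RefSeq table of the assembly GRCr8, so other genes of the pathway and cell type markers were not analysed here. All 6 genes are named whatever their values, and for Slc2a1 and Slc2a4 the gene of most similar pattern is named.

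CPM, the counts scaled to a common library total, used TMM factors over all 12 libraries. Differences were tested across all genes with edgeR 4.0.16 (R 4.3.3), with the filterByExpr filter, robust quasi-likelihood F test, two-sided, and Benjamini-Hochberg adjustment over all genes tested, and called at an adjusted p under 0.05. Each day or surgery was fitted on its own 6 libraries. The day effect over both surgeries, the surgery effect over both days and their interaction were fitted on all 12. The Slc2a4 to Slc2a1 ratio was compared by exact permutation of the labels, two-sided, within surgery or day where both were used, with Benjamini-Hochberg adjustment over 7 comparisons. The alternatives were DESeq2 1.42.0, RLE factors, library totals without TMM, no filter, the replicate number as a block, detected genes as a covariate, each library left out in turn and the 3 libraries with fewest genes left out. Total counts were 14268210 to 17286278 per library, and the precision rests on 3 libraries per group. The study allotted 3 rats per group and day to RNA sequencing. The labels do not say that libraries came from separate litters, so p-values measure the spread between these libraries, which may include technical differences.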

Additional observations from a re-analysis of the deposited data

How the results depend on the processing

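Over both surgeries, 3 genes were called between the days, and 5 were without ABS P3 replicate 3, 0 with detected genes as a covariate and 1, Hk2, without the 3 P3 libraries with the fewest genes. With library totals in place of TMM it was 4 of 6, against 11.8% of all genes. The number ranged from 2 to 5 across the 12 fits that left out 1 library. The genes called among all genes also varied across these fits. They ranged from 1069 of 15600 without ABS P7 replicate 1 to 6232 of 15709 without ABS P3 replicate 3. With the covariate, Gapdh turned from -0.81 to 0.050 on the log2 scale. Sham animals alone gave 2 genes with DESeq2, against 2.78% of all genes, in place of 0. With 1 library left out, sham animals alone gave 0 to 3 and ABS animals alone 0 to 5, in place of 0 in each. The highest of these counts came where 32.2% and 50.1% of all genes passed. The Slc2a4 to Slc2a1 ratio over both surgeries passed the exact permutation test, unadjusted, in all 15 alternatives run for it (p = 0.005 to 0.0313). These were plain ratios, the replicate block, each library left out and the 3 P3 libraries with the fewest genes left out. Since the days did not overlap in this ratio, these alternatives could hardly fail, and their passing is no separate support. Detected genes as a covariate was not run for the ratio. Its surgery difference over both days ranged from 0.29 to 0.53 on the log2 scale with 1 library left out and passed without ABS P3 replicate 1 or ABS P7 replicate 3. For ABS against sham and the interaction, 0 of 6 genes were called in any alternative run. Of 642 fitted values of single genes under alternatives, 578 kept their call and moved by no more than 1 standard error where not called, and 79 changed sign, 78 of them where the main value was not called. The cause was not tested for any of these.

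Replicate numbers were not taken to pair the libraries: deviations of same-numbered ABS and sham libraries had r of -0.446, 0.361 and -0.00765 on day P3 and of 0.0110, 0.0545 and 0.00450 on day P7, and 4 of 12 libraries correlated best with their own number. With the replicate block, 3 genes were called between the days over both surgeries and 0 in every other comparison.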

Other observations

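Ratios of reads within a library, which need no scaling between libraries, were also formed for the enzymes after their values were seen, and are given without a test. Hk2 gave 0.262 to 1.57 reads per Slc2a1 read at P3 and 1.73 to 3.33 at P7, so all 6 libraries of P7 were above all 6 libraries of P3. Gapdh gave 2.30 to 3.77 reads per Pkm read at P3 and 1.97 to 2.24 at P7. Again the days did not overlap, but the gap was narrow. In contrast, Ldha gave 1.44 to 1.77 reads per Pkm read at P3 and 1.44 to 1.60 at P7, with overlapping ranges. The ratio of Hk2 to Gapdh reads also overlapped between the days, as ABS P3 replicate 3 lay just above sham P7 replicate 3. The share of all gene pairs without overlap between the days was not computed. Whether such gaps are particular to these genes was not tested.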
